A study of Coturnix japonica with 12 samples.

Results

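The fibroblast growth factor (FGF) system was followed in the Müllerian ducts of female embryos of the Japanese quail, Coturnix japonica. These paired tubes give rise to the oviduct. It was defined by gene symbol as the FGF ligands, the FGF receptors, the FGF binding proteins, the Sprouty (SPRY) and SPRED inhibitors, DUSP6, IL17RD and the ETS transcription factors ETV1, ETV4 and ETV5. This gave 38 of the 16013 genes in the table, of which 15 were secreted ligands, 3 intracellular FGF homologous factors, 3 binding proteins, 5 receptors, 8 feedback inhibitors and 3 ETS factors. The remaining gene, FGFR1OP2, matched by name only and encodes no receptor. RNA sequencing covered 12 samples in 4 groups of 3, which were left and right ducts of oil-treated embryos (oil_left, oil_right) and left and right ducts of embryos given ethynylestradiol (EE), a synthetic oestrogen, in oil (EE_left, EE_right). All embryos were females grown in surrogate eggshells, and sesame oil, the vehicle, reached every group, with or without EE, from embryonic day 3 to 12. The dose of EE, the strain, the day of collection and whether replicates were separate embryos or pools are unknown from the sources used here, so p-values measure the spread between these samples, which may be technical.

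Secreted FGFs bind receptor tyrosine kinases on the cell surface together with heparan sulphate or a klotho protein, and the receptors signal through the adaptor FRS2, RAS and the kinase ERK. ERK signalling switches on ETS factors of the PEA3 group and a set of inhibitors, among them Sprouty proteins and the ERK phosphatase DUSP6, which damp the pathway in turn. In chick embryos FGF signalling takes part in the early formation of the Müllerian duct. In female birds the left duct becomes the oviduct and the right duct regresses.

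The libraries held 13303458 to 23621985 counts, and haemoglobin genes took 8.76% ± 3.49 (SD, n = 3) of counts in oil_right and 1.68% ± 0.599 to 3.83% ± 2.01 in the other groups. The epithelial marker list, with 13 of 17 genes in the table, all expressed, had a summed level of 624 to 709 FPKM (counts per exonic length and library size, rescaled between libraries with edgeR's TMM factors) in oil_left, 522 to 530 in oil_right, 748 to 857 in EE_left and 732 to 816 in EE_right. Macrophage and leukocyte markers (10 of 13 genes found) summed to 29.95 to 32.0 FPKM in oil_left, 95.2 to 102 in oil_right, 35.4 to 44.1 in EE_left and 39.5 to 53.4 in EE_right. Endothelial markers (14 of 14) summed to 227 to 242, 116 to 132, 210 to 232 and 212 to 217 FPKM in the same order, and smooth muscle markers (12 of 12) to 1593 to 1924, 739 to 1200, 1881 to 2160 and 1247 to 1850. Proliferation markers (14 of 14) summed to 1026 to 1117, 363 to 389, 824 to 943 and 685 to 773 FPKM. Skeletal muscle markers (12 of 13) summed to 238 FPKM in oil_right 1 and to at most 15.9 in the other libraries. Gonad and adrenal markers (8 of 12 found, of which FOXL2 and FSHR passed the filter and MC2R had 0 counts) summed to 0.233 to 1.25 FPKM in oil_left, 3.66 to 5.64 in oil_right, 56.2 to 59.2 in EE_left and 52.9 to 69.3 in EE_right. Most of the EE sum was FOXL2, at 51.3 to 68.5 FPKM in the EE samples and at most 0.611 in the oil samples. FSHR was highest in oil_right, at 3.23 to 5.40 FPKM. Mesothelium markers (7 of 9, with UPK3B at 0 counts) summed to 112 to 125 FPKM in oil_left, 137 to 153 in oil_right, 77.6 to 99.1 in EE_left and 84.9 to 99.1 in EE_right. Erythroid markers (6 of 11) summed to 149 to 219, 428 to 990.3, 110.2 to 229.6 and 146 to 489 FPKM in the same order, and neural markers (11 of 12) to 22.9 to 27.7, 36.4 to 40.7, 21.8 to 34.0 and 26.1 to 38.8. The mesothelium members did not move together between the sides in oil. Of the 6 tested, 2 favoured the left duct and 2 the right at an adjusted p under 0.05 (edgeR quasi-likelihood). The median log2 ratio of these 6, left over right, was 0.16, opposite in direction to the mesothelium sums. The 11 mesonephros markers found were all below the expression filter. These lists moved with the groups, and their part in the FGF results was not tested. In whole ducts, fewer cells of a type and less RNA per cell cannot be told apart.

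Of the 38 genes, 29 passed the expression filter, which asked for at least 1 FPKM in all 3 samples of any group, and 9 did not. The filter was met in all 4 groups by 20 genes and in 1 to 3 groups by 9 (FGF1, FGF9, FGF10, FGF14, FGF18, FGFBP1, FGFBP2, SPRY3 and SPRY4). Because a gene of the latter kind could enter through the group in which it was high, counts over the tested genes below are a description.

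In oil, the right duct carried more transcripts of the ligands FGF1, FGF2, FGF7 and FGF10, of the receptor FGFR1 and of the binding proteins FGFBP1 and FGFBP2, and the left duct more of FGF16, FGFR2, FGFR3, SPRED2, SPRY3 and SPRY4. With FGFR1OP2, which was also higher on the right, these were 14 of 29 genes called at an adjusted p under 0.05 (edgeR quasi-likelihood), 6 with the excess on the left and 8 with it on the right. Among all 11790 genes tested 37.5% were called, 19% with more in left ducts and 18.5% with more in right ducts. The median log2 ratio, left over right, was -0.02 over the 29 genes and -0.0022 over all genes. The 3 samples of one side lay apart from the 3 of the other in 18 of the 29 genes, against 48.3% of all genes. Without TMM factors the median ratio of all genes moved to 0.18, the share of called genes higher on the left went from 50.6% to 75.3%, and the FGF calls became 11 higher and 5 lower. With a covariate for the haemoglobin share of counts, the calls over all genes tested fell from 4423 to 1282. Of the 14 FGF calls, 3 were kept, those of FGF2, FGF10 and FGFR1. The other 11 ratios kept their sign without a call: those of FGF1 (-1.56), FGF16 (1.71) and FGFBP2 (-1.53) were larger than without the covariate, and the rest were smaller, FGF7 at -0.38, FGFR2 at 0.29 and FGFBP1 at -1.51 among them.

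Under EE, no gene of the FGF system was called between left and right ducts, and 10 of all genes (0.0848%) were. DESeq2 and limma on log2 FPKM also called 0 of the 29, and at an unadjusted p under 0.05 there was 1, FGFR1 (log2 ratio -0.29 ± 0.09 SE, 95% interval -0.49 to -0.09, adjusted p = 0.4), beside 7.63% of all genes. The samples of the sides lay apart in 3 of 29 genes (FGFR1, FGFBP1 and SPRY4), against 12.8% of all genes. The change of the side difference with exposure, tested as the interaction, was called for 5 genes of 29 (11.8% of all genes). It was above 0 for 3 genes (4.74% of all genes), FGF2, FGF10 and FGFR1, whose oil ratio favoured the right, and below 0 for 2 (7.08%), FGFR2 and SPRY3, whose oil ratio favoured the left. The interaction subtracts the oil ratio, so it takes the opposite sign to that ratio wherever the EE ratio lies nearer 0. These opposite signs are therefore a description and add no support. Without TMM factors the share of called genes above 0 went from 40.1% to 20.5%, and the FGF calls became 2 above and 2 below.

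**Figure D1:**
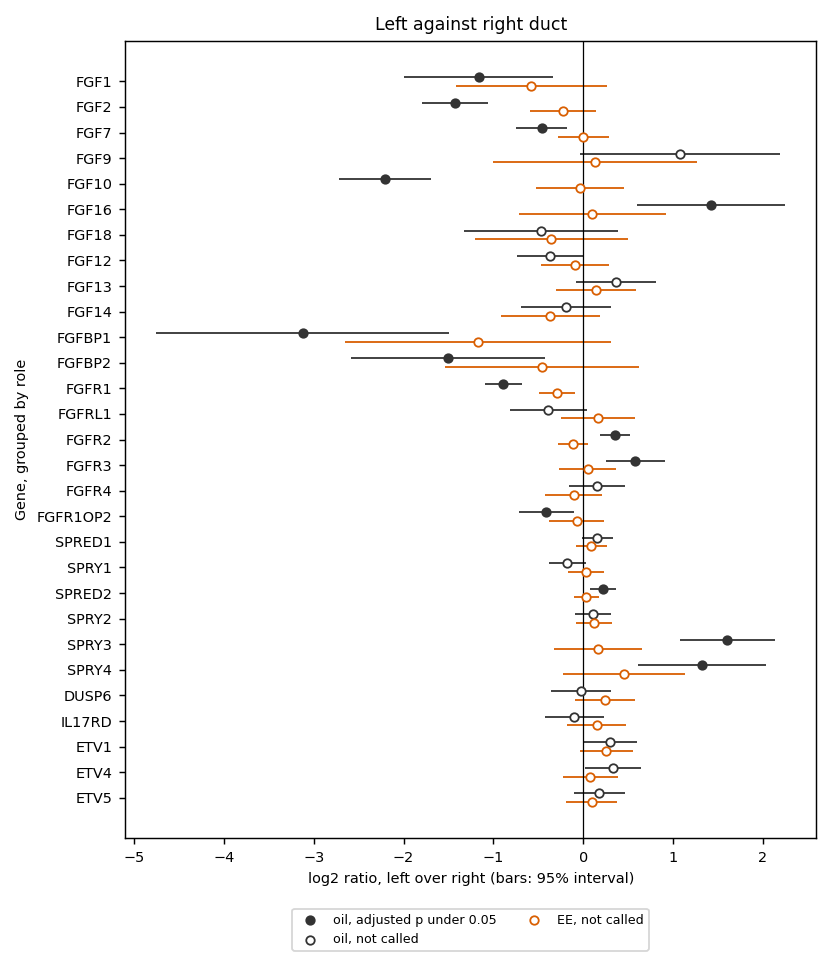
Log2 ratio of left over right ducts for the 29 tested FGF system genes in oil (black) and under EE (orange), with 95% intervals; filled points had an adjusted p under 0.05. In oil 14 genes are filled, with FGF10 at -2.20 and SPRY3 at 1.61, and under EE none is.

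EE raised ETV4, FGFR3, FGFRL1, FGF10 and DUSP6 in left ducts and lowered FGF14, FGFR4 and FGF16 there, which made 5 genes higher (6.67% of all genes) and 3 lower (7.01%), or 8 of 29 against 13.7% of all genes. In right ducts it raised ETV4, FGFR2, FGFR3, SPRY3 and SPRY4 and lowered FGF2, FGF7, FGF10, FGF12, FGF14, FGFR1 and FGFR4, or 5 higher (17.8% of all genes) and 7 lower (17.1%), 12 of 29 against 34.9% of all genes. The median log2 ratio of the 29 genes was 0.04 in left ducts and -0.21 in right ducts, and that of all genes was -0.01 and -0.0024. EE and oil samples lay apart in 12 genes on the left (31.8% of all genes) and in 19 on the right (46.6%). Without TMM factors the median of all genes on the right moved to 0.17, the share of called genes that rose there from 50.9% to 75.6%, and the FGF calls to 8 higher and 6 lower. Both lists held 5 genes, which is 62.5% of the left list and 41.7% of the right list: FGF14 and FGFR4 fell and FGFR3 and ETV4 rose on both sides, while FGF10 rose on the left and fell on the right. Over all genes tested, 1106 were called in both comparisons, which is 68.6% of the 1612 called on the left and 26.9% of the 4112 called on the right, and 93 of them (8.41%) had opposite signs. The comparison of EE with oil in right ducts uses the same oil_right samples as the comparison of the sides in oil, so their values are given side by side below and not counted together.

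**Figure D2:**
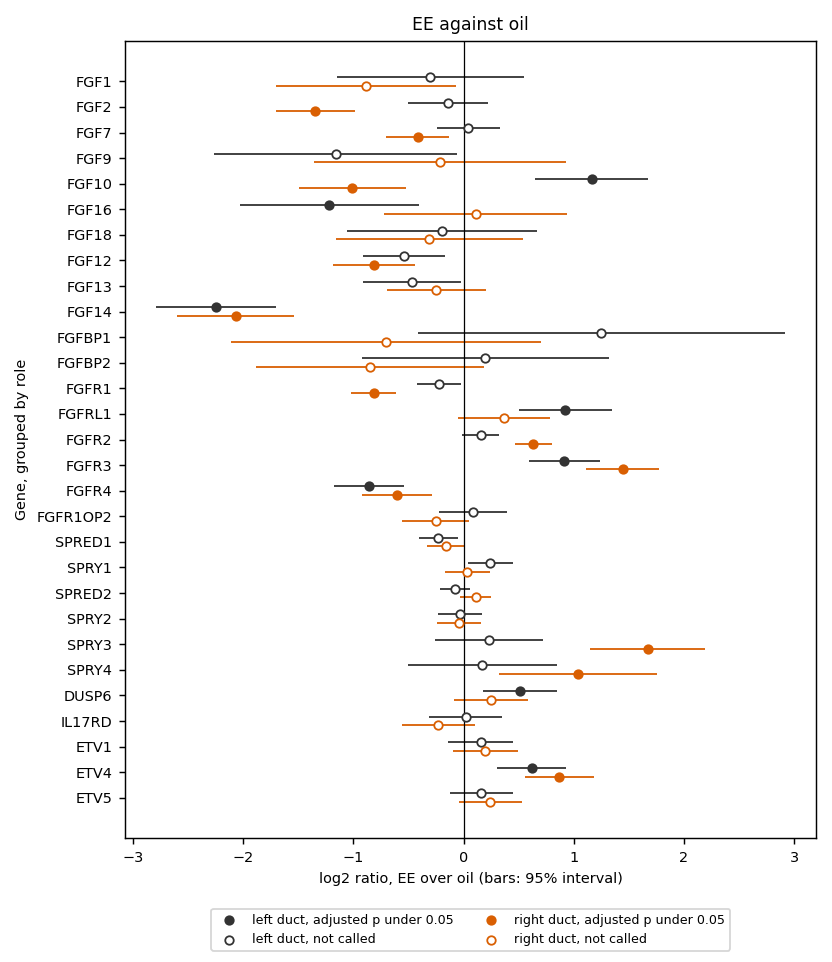
Log2 ratio of EE over oil for the 29 tested genes in left ducts (black) and right ducts (orange), with 95% intervals; filled points had an adjusted p under 0.05. FGF14 lies below -2 and FGFR3 above 0.9 on both sides, and FGF10 lies at 1.16 for left ducts and at -1.01 for right ducts.

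FGF10, a ligand made by mesenchyme that acts on the epithelial form of FGFR2, stood in oil_left at 1.55, 0.772 and 1.01 FPKM and in oil_right at 4.99, 4.74 and 5.70. Its EE_left values were 2.40, 2.31 and 2.76 FPKM, and its EE_right values 2.67, 2.86 and 2.13. All EE samples of both sides thus lay between the oil samples of the left and those of the right. FGF10 was 4.61-fold higher on the right in oil (log2 ratio, left over right, -2.20 ± 0.24 SE, adjusted p = 3.73e-06). EE raised it in left ducts (1.16 ± 0.24, adjusted p = 0.00359) and lowered it in right ducts (-1.01 ± 0.23, adjusted p = 0.00274). Under EE the side ratio was -0.04 (95% interval -0.52 to 0.45), and the interaction was 2.17 ± 0.33 (adjusted p = 0.000408). These FGF10 calls held under every alternative tried, with the side ratio in oil between -2.56 and -1.42.

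FGF2, a heparin-binding growth factor for many cell types, stood at 6.36, 7.06 and 6.59 FPKM in oil_left and at 18.1, 18.6 and 17.2 in oil_right. EE_left had 6.39, 4.72 and 6.98 FPKM, and EE_right had 8.23, 5.32 and 7.63. The oil_right samples were above all 9 others, and the EE samples of the 2 sides overlapped. The ratio was -1.43 ± 0.17 between the sides in oil (adjusted p = 9.65e-06) and -0.22 ± 0.17 under EE (adjusted p = 0.805), with an interaction of 1.20 ± 0.24 (adjusted p = 0.00354). EE lowered FGF2 in right ducts by 1.34 on the log2 scale (SE 0.17, adjusted p = 1.86e-05), and the value in left ducts was -0.14 ± 0.17 (adjusted p = 0.669). FGF2 overlaps NUDT6 on the opposite strand over 673 bases, and the strand setting of the counting is unknown here, so reads of the 2 genes there cannot be told apart.

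FGF7, a mesenchymal growth factor for epithelium, had the highest mean level of all ligands measured. It stood at 60.01, 46.4 and 48.01 FPKM in oil_left, at 72.4, 75.5 and 64.9 in oil_right, at 62.5, 53.4 and 43.4 in EE_left and at 50.1, 47.5 and 61.7 in EE_right. Oil_right was the highest group, and the other 3 groups overlapped. The ratio between the sides in oil was -0.46 ± 0.13 (adjusted p = 0.013), but without TMM factors it was not called (-0.28, adjusted p = 0.0952), nor without oil_left 2 (-0.39, adjusted p = 0.0618) or oil_left 3 (-0.41, adjusted p = 0.0543). EE lowered FGF7 on the right (-0.42 ± 0.13, adjusted p = 0.0231), a call also lost without TMM factors (-0.24, adjusted p = 0.149) and without oil_right 1, oil_right 2, EE_right 1 or EE_right 2 (-0.40 to -0.34, adjusted p from 0.0533 to 0.0985). The haemoglobin covariate removed that call too (-0.37, adjusted p = 0.14). On the left the value was 0.04 ± 0.13. FGF7 shares 28568 bases of its span with LOC107318736 on the opposite strand, which had 284 counts in all samples against 29600 of FGF7.

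FGF1, a ligand that binds all FGF receptors, had a level of 1.59 to 1.88 FPKM in oil_left, 3.05 to 4.72 in oil_right, 0.667 to 2.22 in EE_left and 1.36 to 2.73 in EE_right. It was higher on the right in oil (-1.16 ± 0.39, adjusted p = 0.0278), and this call was lost without any sample of oil_left, without oil_right 1 or without oil_right 2 (-1.24 to -0.98, adjusted p from 0.0519 to 0.0917). FGF16 was the only ligand called higher on the left in oil (1.43 ± 0.39, adjusted p = 0.00851). Its levels were 10.9, 4.49 and 3.79 FPKM in oil_left, 3.04, 1.81 and 2.33 in oil_right, 3.79, 1.88 and 2.59 in EE_left and 3.03, 2.08 and 2.63 in EE_right. A single library, oil_left 1, was far above the rest, and without it the side ratio was 0.79 (adjusted p = 0.0914). The fall of FGF16 under EE on the left (-1.22 ± 0.38, adjusted p = 0.0444) became -0.58 without oil_left 1 (adjusted p = 0.327) and was also lost without EE_left 2, EE_left 3, EE_right 3 or oil_right 3 (-1.22 to -1.01, adjusted p from 0.0548 to 0.16). The haemoglobin covariate removed that call too (-1.11, adjusted p = 0.0823).

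FGF9 and FGF18 were tested and not called in any comparison. FGF9, known in mouse for its part in testis formation, stood at 1.28 to 1.76 FPKM in oil_left and at 0.283 to 1.22 in the other groups. Its side ratio in oil was 1.08 ± 0.52 (adjusted p = 0.118), which was called without oil_right 1 (1.61, adjusted p = 0.0425) and by limma on log2(FPKM + 1) (0.67, adjusted p = 0.0291). FGF9 passed the filter through oil_left alone, the group in which it was high. Its side ratio in oil is therefore a description, and these calls add no support to it. FGF18 ranged from 0.634 to 2.76 FPKM over all samples. The other 8 secreted ligands did not pass the filter. FGF22 had the highest mean level among them, at 0.184 to 1.39 FPKM, with counts in all 12 libraries. FGF5 reached 0.301 FPKM, FGF8 0.193, FGF3 0.187, FGF20 0.122 and FGF23 0.0268. FGF4 had 0 counts in every library, which allows at most 0.177 to 0.317 FPKM at 3 counts per library, a limit for counting error only.

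FGF19, an endocrine FGF of bile acid control, had 0 counts in all 6 oil libraries, 0, 7 and 9 in EE_left and 46, 5 and 5 in EE_right. Its highest level, 1.58 FPKM in EE_right 1, stood apart from the 0.18 to 0.316 FPKM of the other 4 libraries with counts. It was below the filter, and without that filter edgeR called it higher in EE_right than in oil_right (adjusted p = 0.0299). That call set the EE_right counts, most of them from EE_right 1, against 0 counts in every oil_right library. FGF3, FGF4 and FGF19 lie next to each other with no other gene of the table between them, and so do FGF1 and SPRY4 and FGFBP2 and FGFBP1.

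**Figure D3:**
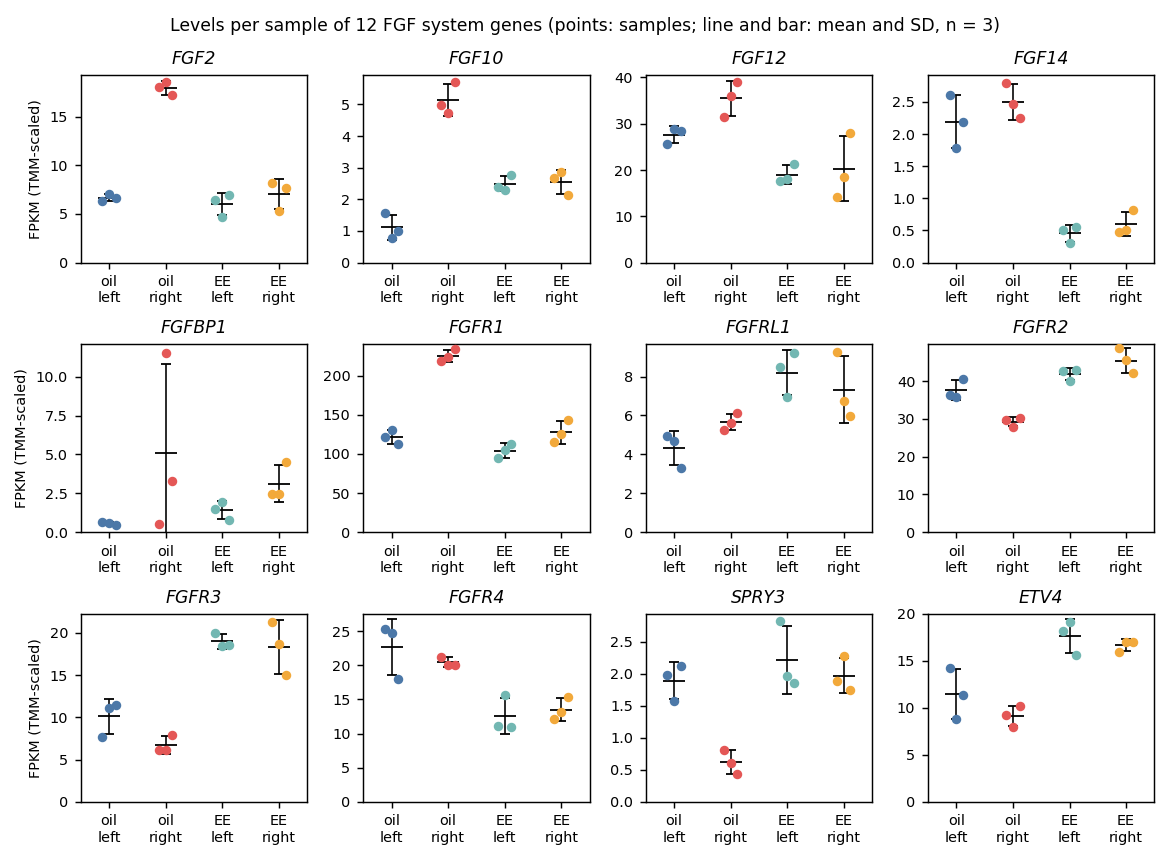
FPKM (TMM-scaled) per sample for the 12 FGF system genes with the lowest p-values, with the mean and SD of each group of 3. Oil_right stands above the other groups for FGF2, FGF10 and FGFR1 and below them for SPRY3, and both EE groups stand above both oil groups for FGFR3 and ETV4 and below them for FGF14 and FGFR4.

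The intracellular FGF homologous factors FGF12, FGF13 and FGF14 are not secreted and are known as partners of voltage-gated sodium channels. FGF14 stood at 2.61, 1.79 and 2.18 FPKM in oil_left, at 2.80, 2.46 and 2.24 in oil_right, at 0.508, 0.310 and 0.556 in EE_left and at 0.472, 0.504 and 0.816 in EE_right. Every EE sample was below every oil sample, and the sides overlapped under each exposure. EE lowered FGF14 by 2.24 on the log2 scale on the left (SE 0.26, adjusted p = 1.94e-05), or 4.73-fold, and by 2.07 on the right (SE 0.25, adjusted p = 1.29e-05). FGF14 passed the filter through the oil groups alone, in which it was high, so these ratios are a description. Both were also called with no filter on low counts. The interaction was -0.18 ± 0.35 (95% interval -0.92 to 0.57), so a difference between the 2 effects was not detectable within that interval.

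FGF12 had the highest level of the 3, at 25.6, 28.8 and 28.5 FPKM in oil_left and 31.5, 36.0 and 39.0 in oil_right. In EE_left it stood at 17.5, 18.04 and 21.4 FPKM and in EE_right at 14.2, 18.6 and 28.0, all but EE_right 3 below every oil sample. EE lowered it on the right (-0.81 ± 0.18, adjusted p = 0.00202). On the left the value was -0.54 ± 0.18 (adjusted p = 0.0545), which was called by DESeq2 (adjusted p = 0.0184) and without EE_right 1 (0.0150) or EE_right 3 (0.00652). The side ratio in oil, -0.36 ± 0.17 (adjusted p = 0.115), was also called without EE_right 1 (0.0469) or EE_right 3 (0.0254). FGF13 ranged from 1.75 to 3.64 FPKM and was called in no comparison, except that without oil_right 1 its side ratio in oil was 0.65 (adjusted p = 0.0172).

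FGF binding proteins are secreted carriers, and FGFBP1 is known to release FGFs from heparan sulphate. FGFBP1 was highest in a single library, with 0.543, 11.5 and 3.28 FPKM in oil_right against 0.641, 0.607 and 0.468 in oil_left. EE_left had 1.51, 1.91 and 0.784 FPKM, and EE_right had 2.45, 2.44 and 4.50. The oil groups overlapped through oil_right 1. The ratio between the sides in oil was -3.12 ± 0.77 (adjusted p = 0.00447), and without oil_right 2 it was -1.71 (adjusted p = 0.0542). The interaction, 1.95 ± 1.03 (adjusted p = 0.255), was called without oil_right 1 (2.49, adjusted p = 0.0338). FGFBP1 passed the filter through EE_right alone, so its interaction is a description and that call adds no support to it. FGFBP2 was at 0.863 to 1.43 FPKM in oil_left and 2.20 to 3.49 in oil_right (-1.50 ± 0.51, adjusted p = 0.0291), a call lost without oil_left 1, oil_left 2, oil_right 1 or oil_right 3 (-1.44 to -1.37, adjusted p from 0.0605 to 0.0917) or with no expression filter (adjusted p = 0.0695). FGFBP2 passed the filter through the right ducts alone (oil_right and EE_right), so its side ratio is a description. FGFBP3, below the filter, had 24 counts in 3 libraries and reached 0.934 FPKM.

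FGFR1 was the most abundant gene of the system. Its levels were 122, 131 and 113 FPKM in oil_left, 219, 224 and 234 in oil_right, 94.7, 105 and 113 in EE_left and 115, 125 and 144 in EE_right. Oil_right lay above all other samples, and under EE every right sample was above every left sample. The side ratio in oil was -0.89 ± 0.09 (adjusted p = 2.88e-06), or 1.85-fold more on the right. EE lowered FGFR1 in right ducts (-0.82 ± 0.09, adjusted p = 8.12e-06), and the value in left ducts was -0.22 ± 0.09 (adjusted p = 0.136). The interaction, 0.59 ± 0.13 (adjusted p = 0.00769), lost its call without TMM factors (0.45, adjusted p = 0.0561), where the median of all genes was -0.14.

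FGFR2, whose epithelial splice form receives FGF7 and FGF10, ran against FGFR1 between the sides in oil and for EE over oil on the right. Between the sides under EE its ratio was -0.12 ± 0.08 (adjusted p = 0.781), with the same sign as that of FGFR1. It stood at 36.4, 35.7 and 40.7 FPKM in oil_left, at 29.7, 27.9 and 30.2 in oil_right, at 42.7, 40.0 and 43.0 in EE_left and at 48.7, 45.5 and 42.1 in EE_right. Oil_right was below all other samples. The ratio was 0.36 ± 0.08 between the sides in oil (adjusted p = 0.00201) and 0.63 ± 0.08 for EE over oil on the right (adjusted p = 1.59e-05), with 0.16 ± 0.08 on the left (adjusted p = 0.218). The interaction of -0.48 ± 0.11 (adjusted p = 0.00952) was -0.46 (adjusted p = 0.0554) without oil_left 1, oil_right 1 and EE_right 1, libraries left out together because earlier results of these data had set them apart. Counts per gene do not separate the splice forms. The epithelial, endothelial, smooth muscle and proliferation marker sums, given above, were also lowest in oil_right on average. The macrophage, mesothelium, erythroid and neural sums were highest there on average, and the erythroid and neural sums overlapped those of EE_right. The mesothelium members split by side in oil, as given above. Of 6 neural genes tested, 1 favoured the left and 3 the right in oil at an adjusted p under 0.05. The part of these marker lists in the FGFR2 values was not tested.

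FGFR3 rose under EE on both sides. It stood at 7.71, 11.1 and 11.5 FPKM in oil_left, at 6.13, 6.11 and 7.96 in oil_right, at 20.0, 18.4 and 18.6 in EE_left and at 21.3, 18.7 and 15.0 in EE_right. Every EE sample was above every oil sample. The rise was 0.91 ± 0.15 on the left (adjusted p = 0.00067) and 1.45 ± 0.16 on the right (adjusted p = 3.74e-06), and the side ratio in oil was 0.58 ± 0.16 (adjusted p = 0.00766). The oil groups overlapped, and the side ratio in oil was 0.37 with the haemoglobin covariate (adjusted p = 0.409). The interaction was -0.53 ± 0.22 (adjusted p = 0.133) and was called without oil_left 1 (-0.69, adjusted p = 0.0314).

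FGFR4 moved the other way, with 25.3, 24.7 and 17.97 FPKM in oil_left, 21.3, 20.0 and 20.1 in oil_right, 11.2, 15.7 and 10.9 in EE_left and 12.1, 13.1 and 15.3 in EE_right. Every EE sample was below every oil sample. It fell by 0.86 on the log2 scale on the left (SE 0.15, adjusted p = 0.000955) and by 0.60 on the right (SE 0.15, adjusted p = 0.00514). The right-side call was lost with the haemoglobin covariate (-0.47, adjusted p = 0.0886) and without oil_left 1, oil_right 1 and EE_right 1 together (-0.50, adjusted p = 0.0581).

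FGFRL1, a receptor-like protein without a kinase domain, stood at 4.95, 4.66 and 3.31 FPKM in oil_left, at 5.27, 5.62 and 6.10 in oil_right, at 8.49, 6.93 and 9.20 in EE_left and at 9.26, 6.72 and 5.97 in EE_right. The left EE samples were above all oil samples, and EE_right 3 was within the range of oil_right. The rise was 0.92 ± 0.20 on the left (adjusted p = 0.00462), with 0.37 ± 0.20 on the right (adjusted p = 0.159) and an interaction of 0.55 ± 0.28 (adjusted p = 0.233). Without TMM factors the value on the right was called (0.54, adjusted p = 0.0373), where the median of all genes was 0.17.

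The summed level of the 4 kinase receptors was 192 FPKM ± 9.85 (SD, n = 3) in oil_left, 282 ± 8.59 in oil_right, 178 ± 8.71 in EE_left and 205 ± 9.96 in EE_right. FGFR1 made up 63.4% ± 1.55 of it in oil_left, 80.0% ± 0.64 in oil_right, 58.6% ± 2.41 in EE_left and 62.2% ± 4.12 in EE_right. The share of FGFR3 was 5.26% ± 1.15 in oil_left and 2.38% ± 0.301 in oil_right, against 10.7% ± 1.01 in EE_left and 8.99% ± 1.95 in EE_right. FGFR4 made up 11.8% ± 1.75 in oil_left and 7.08% ± 1.49 in EE_left, so that FGFR4 had a larger mean share than FGFR3 in oil_left and a smaller one in EE_left. An exact test of 3 against 3 samples cannot give a two-sided p under 0.1, so these shares are a description.

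**Figure D4:**
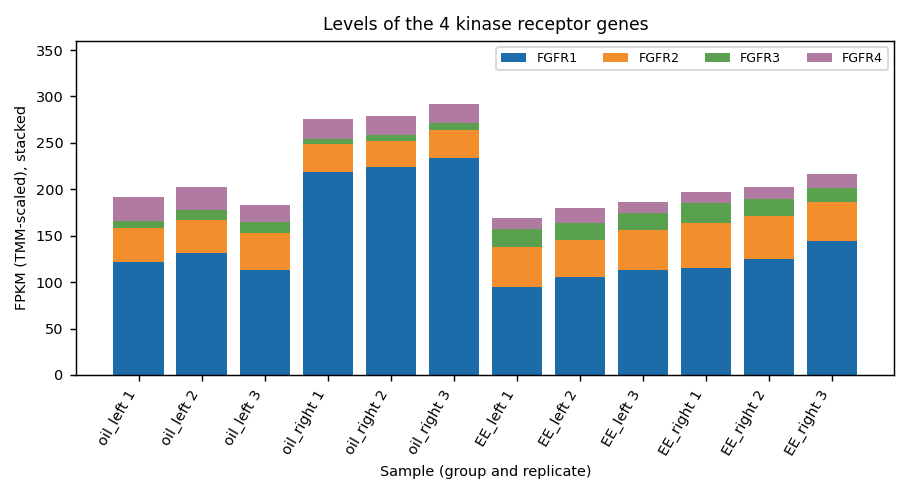
Stacked FPKM (TMM-scaled) of FGFR1, FGFR2, FGFR3 and FGFR4 in each of the 12 samples. The 3 oil_right bars are the tallest and have the tallest FGFR1 segments, and the FGFR3 segment is taller in the 6 EE samples than in the 6 oil samples.

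Of the 8 feedback inhibitors, SPRY3, SPRY4, SPRED2 and DUSP6 were called in at least 1 comparison. Between the sides in oil alone 37.5% of all genes tested were called, so this is a listing and not a result about the inhibitors. SPRY3 stood at 1.99, 1.57 and 2.12 FPKM in oil_left, at 0.815, 0.606 and 0.436 in oil_right, at 2.82, 1.97 and 1.85 in EE_left and at 1.88, 2.28 and 1.75 in EE_right. Oil_right was below all other samples, and the other groups overlapped. The ratio between the sides in oil was 1.61 ± 0.25 (adjusted p = 0.000105), a 3.04-fold difference, which was 1.11 with the haemoglobin covariate (adjusted p = 0.058). EE raised SPRY3 on the right (1.67 ± 0.25, adjusted p = 7.8e-05), with 0.23 ± 0.23 on the left (adjusted p = 0.588) and an interaction of -1.44 ± 0.34 (adjusted p = 0.00977).

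SPRY4 stood at 1.56, 1.31 and 1.35 FPKM in oil_left, at 0.873, 0.314 and 0.500 in oil_right, at 1.98, 1.501 and 1.28 in EE_left and at 1.06, 1.19 and 1.22 in EE_right. Left samples were above right samples under both exposures. The side ratio was 1.32 ± 0.34 in oil (adjusted p = 0.00573) and 0.45 ± 0.32 under EE (adjusted p = 0.788). Its rise under EE on the right (1.04 ± 0.34, adjusted p = 0.0246) lost the call without oil_right 2, oil_right 3, EE_right 2 or EE_right 3 (0.76 to 1.02, adjusted p from 0.0582 to 0.103). That call was also lost with the haemoglobin covariate (0.72, adjusted p = 0.24) and with only the 2 groups in the fit (1.04, adjusted p = 0.067).

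SPRY1 and SPRY2, the more abundant Sprouty genes, ranged from 15.4 to 21.95 and from 11.5 to 14.3 FPKM and were called in no comparison, although without oil_left 2 the EE ratio of SPRY1 on the left was 0.34 (adjusted p = 0.0435). SPRED1 (26.3 to 37.8 FPKM) was not called either. Without TMM factors SPRED1 (0.34, adjusted p = 0.00633) and SPRY2 (0.29, adjusted p = 0.0486) were called higher on the left in oil, where the median of all genes was 0.18. SPRED2, an inhibitor of RAS signalling like SPRED1, was higher on the left in oil by 0.22 ± 0.07 (adjusted p = 0.0149), with 46.8 to 50.8 FPKM in oil_left and 41.2 to 43.6 in oil_right. That call was lost without oil_left 2 or oil_right 2 (0.20, adjusted p = 0.054 and 0.0552). IL17RD, an inhibitor at the receptor also known as SEF, ranged from 2.65 to 3.99 FPKM and was not called. Its span shares 9197 bases with HESX1 on the same strand, which had 64 counts in all samples.

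DUSP6 stood at 8.43, 11.03 and 6.95 FPKM in oil_left and at 13.2, 10.6 and 13.98 in EE_left, groups that overlapped, and at 8.82 to 9.09 in oil_right and 9.21 to 11.8 in EE_right, groups that did not. EE raised it on the left (0.51 ± 0.16, adjusted p = 0.0398), with 0.25 ± 0.16 on the right (adjusted p = 0.244). The left call was lost without oil_left 1, oil_left 3, oil_right 3, EE_left 1 or EE_left 3 (0.38 to 0.51, adjusted p from 0.0515 to 0.156).

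ETV4 was the only PEA3 group factor that was called. Its levels were 14.2, 8.85 and 11.4 FPKM in oil_left, 9.21, 7.97 and 10.2 in oil_right, 18.2, 19.1 and 15.6 in EE_left and 15.9, 17.04 and 17.03 in EE_right. Every EE sample was above every oil sample. The rise was 0.62 ± 0.15 on the left (adjusted p = 0.00871) and 0.87 ± 0.15 on the right (adjusted p = 0.000277), and both calls held under every alternative. The interaction was -0.25 ± 0.21 (adjusted p = 0.5). ETV1 ranged from 7.97 to 14.7 FPKM and ETV5 from 20.4 to 33.2 without a call. For EE over oil on the right, the ratio of ETV5 was 0.24 ± 0.13 (adjusted p = 0.176). That ratio was called with only the 2 groups in the fit (0.24, adjusted p = 0.0474) and by limma on log2(FPKM + 1) (0.40, adjusted p = 0.0309). It was also called without TMM factors (0.42, adjusted p = 0.0198), where the median of all genes was 0.17. Without TMM factors ETV1 (0.48, adjusted p = 0.0145), ETV4 (0.50, adjusted p = 0.0161) and ETV5 (0.36, adjusted p = 0.0392) were called higher on the left in oil. The median of all genes was itself 0.18 there, so these calls move with the scaling and add no support. With TMM factors, leaving out 1 library gave a call between the sides in oil for ETV4 (without oil_left 2, 0.49, adjusted p = 0.0119) and ETV1 (without EE_left 1, 0.30, adjusted p = 0.0386).

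**Figure D5:**
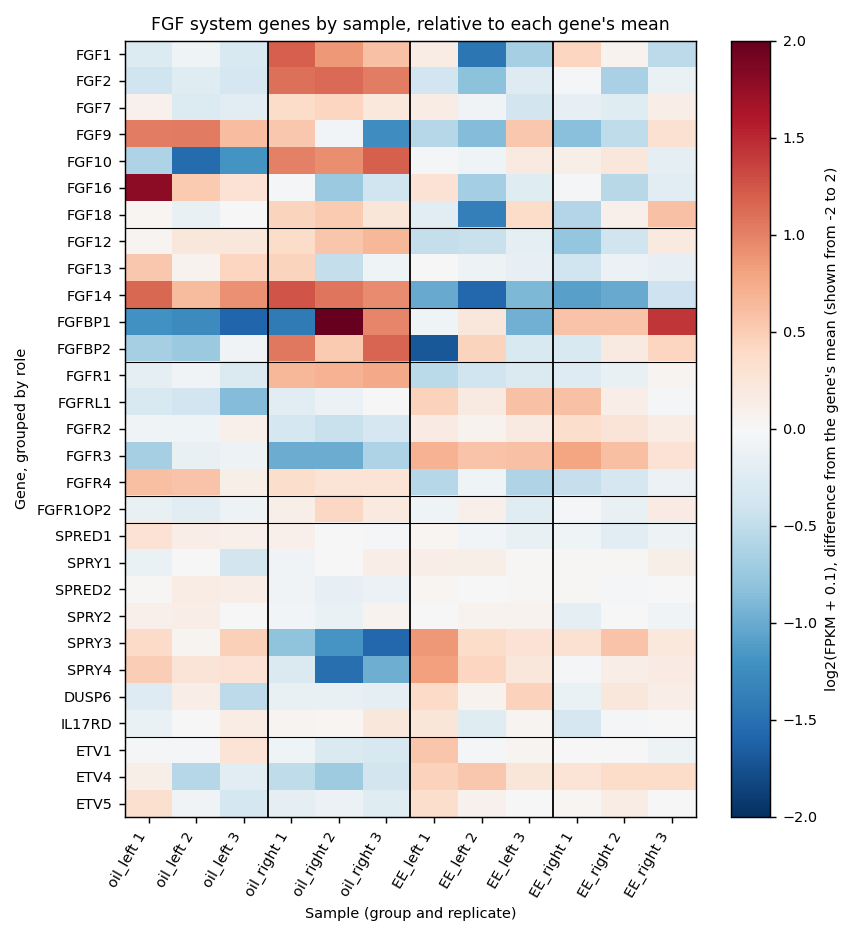
Log2(FPKM + 0.1) of the 29 tested genes in the 12 samples, as the difference from each gene's mean, with genes grouped by role. FGF2, FGF10 and FGFR1 are high in the 3 oil_right samples, FGF14 is low in all 6 EE samples, and SPRY1, SPRY2, SPRED1, SPRED2 and IL17RD change little in colour.

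FGFR1OP2 ranged from 4.51 to 7.15 FPKM. It was higher on the right in oil by 0.41 on the log2 scale (-0.41 ± 0.14, adjusted p = 0.0343), a call lost without any sample of oil_left, without oil_right 2 or without oil_right 3 (-0.44 to -0.32, adjusted p from 0.0532 to 0.14) and without TMM factors (-0.22, adjusted p = 0.226). FGFR1OP2 overlaps TM7SF3 on the opposite strand over 159 bases, where reads of the 2 genes cannot be told apart. TM7SF3 had 9410 counts in all samples against 4475 of FGFR1OP2.

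The other genes of FGF signalling were taken from 3 lists, chosen with earlier results of these data known. Their calls were not checked under the alternatives used for the FGF genes. Of 27 tested signal transducers, 4 had their excess in left ducts and 5 in right ducts in oil, 0 were called between the sides under EE (3 at an unadjusted p under 0.05), 1 rose on the left with EE, and 3 rose and 5 fell on the right. These were 33.3%, 0%, 3.7% and 29.6% of the list, beside 37.5%, 0.0848%, 13.7% and 34.9% of all genes. The list's medians in these 4 comparisons were -0.01, 0.03, -0.06 and -0.06, and those of all genes lay between -0.01 and 0. PLCG1, a phospholipase that receptors activate, was higher on the right in oil (-1.01 ± 0.11, adjusted p = 4.02e-06) and fell on the right with EE (-0.49 ± 0.11), with an interaction of 0.79 ± 0.16 (adjusted p = 0.00337). It was the only transducer called for the interaction, 3.7% of the list beside 11.8% of all genes. KSR1, a scaffold of the RAF kinases, was higher on the left in oil (0.91 ± 0.13), while STAT3 (-0.42 ± 0.07) and PIK3CA, a catalytic subunit of PI3 kinase (-0.75 ± 0.19), were higher on the right. With EE, PIK3R1, a regulatory subunit of that kinase, rose on both sides (left 0.40 ± 0.10, right 0.60 ± 0.10), and on the right STAT3 (-0.32 ± 0.07) and the receptor adaptor FRS2 (-0.51 ± 0.12) fell.

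Of 23 other genes known as outputs or modulators of ERK, 6 had their excess in left ducts and 3 in right ducts in oil, 0 were called under EE between the sides (3 at an unadjusted p under 0.05), 4 rose and 5 fell on the left with EE, and 6 rose and 6 fell on the right. The shares of the list were 39.1%, 0%, 39.1% and 52.2%, of which that in oil was near the 37.5% of all genes, while those with EE stood beside 13.7% and 34.9%. The medians were 0.24, 0.02, -0.09 and 0.04, beside the medians of all genes given above. The immediate-early genes EGR1 (-0.90 ± 0.14) and FOS (-1.23 ± 0.25) were higher on the right in oil, and HMGA2 (0.54 ± 0.09) and the phosphatase DUSP14 (0.52 ± 0.11) on the left. PHLDA1 rose with EE on both sides (0.83 ± 0.12 and 0.81 ± 0.13), as did the transcription factor GATA4 (0.99 ± 0.20 and 1.61 ± 0.20). DUSP16 rose on both sides too (0.56 ± 0.12 and 0.67 ± 0.12), and EGR1 fell on both (-0.49 ± 0.14 and -1.12 ± 0.14). MYC rose on the left (0.71 ± 0.15) and MYCN on the right (0.96 ± 0.12). The interaction was called for MYCN (-0.62 ± 0.17, adjusted p = 0.0272) and DUSP14 (-0.53 ± 0.15, adjusted p = 0.0293). These were 8.7% of the list, below the 11.8% of all genes.

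Of 27 coreceptors and genes of heparan sulphate, which presents FGFs to their receptors, 10 had their excess in left ducts and 1 in right ducts in oil. Under EE 0 of 27 were called between the sides (2 at an unadjusted p under 0.05), 2 rose and 5 fell with EE on the left, and 8 rose and 2 fell on the right, with medians of 0.23, 0.05, -0.04 and 0.13. The shares called were 40.7% in oil and 37% for EE on the right, near the 37.5% and 34.9% of all genes, and 25.9% for EE on the left beside 13.7%. By direction in oil, 10 of 27 higher on the left stood beside 19% of all genes and 1 of 27 lower beside 18.5%. These list counts were not repeated with the haemoglobin covariate, under which the calls over all genes in oil fell from 4423 to 1282. The cell-surface proteoglycans SDC2 (0.64 ± 0.07, adjusted p = 4.92e-06), GPC4 (0.75 ± 0.09) and SDC3 (0.62 ± 0.10) and the membrane protein FLRT3 (0.58 ± 0.11) were higher on the left in oil. NDST2, a heparan sulphate sulphotransferase, rose with EE on both sides (0.69 ± 0.09 and 0.59 ± 0.09). SULF1, an enzyme that removes sulphate groups, rose on both sides as well (0.69 ± 0.19 and 0.93 ± 0.19), and FLRT2 fell on both (-0.77 ± 0.13 and -0.52 ± 0.13). SDC2 (-0.43 ± 0.07) and GPC4 (-0.39 ± 0.08) fell on the left, and SDC3 (0.51 ± 0.10) and GLCE (0.50 ± 0.11) rose on the right, where GPC4 also rose (0.27 ± 0.09). The side difference changed with exposure for GPC4 (-0.67 ± 0.12, adjusted p = 0.00159), SDC2 (-0.56 ± 0.10), SDC3 (-0.52 ± 0.15) and HS3ST1 (-0.57 ± 0.17, adjusted p = 0.045). These were 14.8% of the list, near the 11.8% of all genes. The klotho coreceptors KL and KLB were below the filter.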

How the data were processed

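Reads were trimmed with cutadapt 1.9.1, aligned with HISAT2 2.0.1 and counted with HTSeq 0.6.1, and DESeq2 1.6.3 is also named, per the submitters' processing notes; build and annotation are unknown from the sources used here. The authors' deposited table gives raw counts by gene, the authors' FPKM values (counts per exonic length and total), which the counts returned to within 0.005, and exonic lengths in bases. Counts were fitted with edgeR 4.0.16 in R 4.3.3 (TMM, quasi-likelihood, two-sided) with 4 group means over 12 samples. Genes needed a deposited FPKM of at least 1 in 3 samples of a group, and 11790 of 16013 passed. A gene was called at a Benjamini-Hochberg adjusted p under 0.05 over all genes tested. Printed levels are counts per exonic length and library size, scaled by TMM, and SE is the log2 ratio divided by the root of F. Named were all called genes, with sample values for the 12 of lowest p and some others chosen after their values were seen, and up to 4 genes of lowest p per list. The gene set and lists were chosen with earlier results of these data known. Alternatives used DESeq2 1.42.0 and limma 3.58.1.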

Additional observations from a re-analysis of the deposited data

Results flagged for a closer look

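The side difference changed with exposure, by the interaction term of the edgeR model, for 5 of 29 tested genes of the FGF system (17.2%). Among all genes tested 11.8% were called for it. On the log2 scale, the left over right ratio under EE less that in oil was 2.17 for FGF10 (adjusted p = 0.000408), 1.20 for FGF2 (0.00354), 0.593 for FGFR1 (0.00769), -0.478 for FGFR2 (0.00952) and -1.44 for SPRY3 (0.00977). FGF10 combined a fall on the right with a rise on the left under EE, and its 6 EE samples lay between the oil samples of the sides. For FGF2, FGFR1, FGFR2 and SPRY3, EE was called against oil on the right and not on the left.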

How the results depend on the processing

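No call of the FGF system changed sign. Of 892 pairs of a called ratio and an alternative, 808 kept the call and 84 lost it, and 21 of the 39 calls held under every alternative. Some alternatives left out a library of neither compared group, which hardly moves the ratio and changes mainly the shared spread. All 14 calls between the sides in oil were kept when any EE library was left out. The share of pairs kept is therefore not a measure of how firm the calls are. The number of FGF genes called between the sides in oil was 14 and fell to 3 with the haemoglobin covariate. Over all genes tested the number fell from 4423 to 1282. Haemoglobin and side move together there and cannot be told apart. With the covariate the ratios of FGF1 (-1.56), FGF16 (1.71) and FGFBP2 (-1.53) were larger than the -1.16, 1.43 and -1.50 without it. The number of FGF calls between the sides in oil stayed within 1.5 times under the other alternatives, as did the counts of the other comparisons. Leaving out each sample gave 10 to 15 calls between the sides in oil, 0 under EE, 6 to 9 for EE against oil on the left, 10 to 12 on the right and 5 to 6 for the interaction. With the replicate number as a block the counts were 15, 0, 8, 12 and 5; DUSP6 on the left lost its call (adjusted p = 0.0517), and FGF12 gained one between the sides in oil (0.0483) and on the left (0.0133). Between the sides, same-numbered samples correlated at 0.0636 to 0.165 in oil and at -0.0195 to 0.0823 under EE. In oil all 6 samples correlated best with their own number, a hint from the data only, and under EE 1 of 6 did. No label says that the numbers mark embryos, so they were not taken as pairs, and the side tests leave out any pairing. The block was shared by oil and EE samples of the same number, so it does not model pairs of sides within an exposure. Depth limits the scarce genes: FGFBP2 had 415 counts over the 12 libraries, FGF1 915 and FGF19 72.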

Other observations

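A further FGF gene of the table, annotated as fibroblast growth factor 11 under the identifier LOC107307066, lies outside the symbols used above. It stood at 8.80 FPKM ± 2.57 (SD, n = 3) in oil_left, 10.8 ± 1.51 in oil_right, 8.49 ± 1.57 in EE_left and 11.35 ± 1.85 in EE_right, and was called in no comparison (adjusted p from 0.384 to 0.908).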
